A study of Homo sapiens with 4 samples.

Results

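The messenger RNAs of 10 secreted or cell-surface components of Wnt signalling, out of 33538 genes counted, were followed in a human line labelled as colonic epithelial cells, with and without APC knockdown. The members were chosen by symbol and by role: the ligands WNT5A and WNT5B, the Frizzled receptors FZD2 and FZD7, the co-receptors and alternative receptors LRP6, ROR2 and RYK, and the secreted antagonists DKK1, DKK3 and SFRP1. All 10 symbols were matched to 1 row each, and all had UMIs in every library.

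The cells were HCEC 1CT, a non-transformed human colonic line immortalised with CDK4 and telomerase, which the labels call epithelial progenitors. Cells received by virus an APC shRNA, here called shAPC, or a scrambled control, called shScr. They were kept under puromycin in low-serum medium containing EGF, hydrocortisone, insulin, selenite and transferrin, and were harvested 3 or 7 days after transduction. Each of the 4 combinations of shRNA and day was 1 droplet single-cell library, and a single shRNA sequence against APC was used. No spread between cultures could be measured, so the intervals below are 95% intervals of counting error only and no difference between conditions was tested.

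Wnt ligands are lipid-modified secreted proteins that bind Frizzled receptors. With LRP6 as co-receptor they keep β-catenin from being degraded, whereas ligands such as WNT5A act mainly through β-catenin-independent routes that use ROR2 or RYK. APC is a scaffold of the complex that marks β-catenin for degradation inside the cell, downstream of the receptors. The Dickkopf protein DKK1 acts outside the cell on LRP co-receptors and SFRP proteins bind the ligands. Loss of DKK1 or SFRP1 expression is well known in colorectal cancer.

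DKK1 is also a known target of β-catenin and its TCF/LEF partners, so the sequence before its start site is shown, beside a WNT5A start site, the ligand that differed most between shAPC and shScr. Both are the 250 bases before a RefSeq transcription start on GRCh38.p14, written 5′ to 3′ on the strand of the gene: chr10:52314031-52314280, plus strand, for DKK1 and chr3:55481399-55481648, minus strand, for an internal WNT5A start. Capitals mark matches to a core word of the TCF/LEF motif, CTTTGAA with A or T allowed at either of its last positions and searched on both strands. They also mark TATAAA, searched on the strand of the gene.
DKK1: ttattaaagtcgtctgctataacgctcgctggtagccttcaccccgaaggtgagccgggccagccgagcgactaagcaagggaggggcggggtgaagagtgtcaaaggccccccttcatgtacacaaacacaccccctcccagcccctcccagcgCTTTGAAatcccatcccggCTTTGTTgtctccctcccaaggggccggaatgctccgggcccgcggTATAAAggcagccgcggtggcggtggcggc
WNT5A: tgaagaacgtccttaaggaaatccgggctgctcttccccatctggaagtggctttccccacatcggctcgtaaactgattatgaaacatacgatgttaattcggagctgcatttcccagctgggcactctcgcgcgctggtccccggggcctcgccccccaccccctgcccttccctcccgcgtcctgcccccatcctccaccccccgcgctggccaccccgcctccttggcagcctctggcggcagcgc
The DKK1 window held CTTTGAA 95 bases before the start, CTTTGTT at 76 bases and TATAAA at 30 bases, none overlapping another. Of 35116 promoter windows of this length, 12.0% held at least 1 form of the TCF/LEF word and 6.80% held TATAAA. The promoter table held 7 windows for 5 members, WNT5A, WNT5B, RYK, ROR2 and DKK1, and neither motif was found in the 6 windows other than that of DKK1. These are matches of letters in a window, not measured binding sites.

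After cells with under 200 genes, under 500 UMIs (unique molecular identifiers, 1 per captured transcript) or at least 5% mitochondrial UMIs were left out, the libraries held 788 to 2600 cells and 28451455 to 39797418 UMIs. The control library at day 7 stood apart in depth, with a median of 1330 UMIs per cell against 21030 to 49686 in the other 3. The mitochondrial limit removed 51.1% of barcodes from shAPC day 7 and 23.4% to 28.8% from the others. The shScr and shAPC libraries shared 23 barcodes at day 3 and 25 at day 7, and pairs of libraries from different days shared 2 to 7. APC itself was at 16.1 CPM (UMIs scaled to a library total of 1000000) in shScr day 3, 5.52 CPM in shAPC day 3, 19.1 CPM in shScr day 7 and 6.61 CPM in shAPC day 7, which is 34.4% of control at day 3 and 34.6% at day 7. Of 12 epithelial markers, 8 never exceeded 8 UMIs in any library: KRT20, CDX2 and MUC2 were at 0 throughout, and EPCAM and CDH1 had at most 2 UMIs. The list summed to 25.1 to 49.5 CPM, mostly KRT8, KRT18, KRT19 and CLDN7. The 9 mesenchymal markers, led by VIM and FN1, summed to 8854 to 11421 CPM. The labelled epithelial identity was therefore not borne out by its defining markers.

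All 10 members were detected, but at very different levels. The method counts 3′ ends, 1 UMI per captured transcript without dependence on length, so levels are set beside each other here. Whether transcripts of different genes were captured equally well was not measured, so the order below is one of UMIs. The 3 antagonists and the 2 ligands filled the first 5 ranks in every library, RYK was always sixth, and FZD7, FZD2, LRP6 and ROR2 always followed in that order. Within the upper group the order shifted: DKK1 led in 3 libraries, DKK3 led in shAPC day 3, and WNT5A moved from the fifth rank in shScr day 3 to the second in shAPC day 7. Neighbours that did not differ beyond counting error were SFRP1 and DKK3, and WNT5B and WNT5A, in shScr day 3, and DKK3 and SFRP1, and FZD7 and FZD2, in shAPC day 3. DKK1 and WNT5A varied most across libraries, by 2.19-fold and 2.16-fold between the lowest and highest, and FZD7 varied least, by 1.16-fold.

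**Figure D1:**
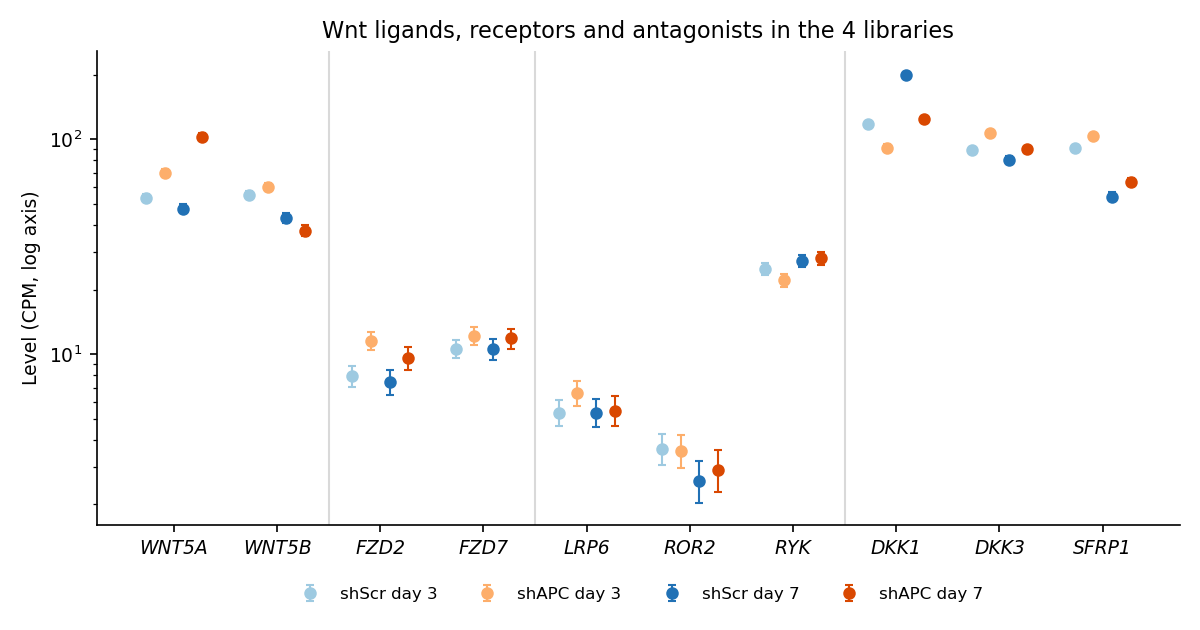
Level of each member in the 4 libraries, in CPM on a log axis, with points for libraries and bars for 95% Poisson intervals; grey lines separate ligands, Frizzled receptors, other receptors and antagonists. WNT5A in shAPC day 7 (103 CPM) lies above its other 3 libraries (47.7 to 69.8 CPM), and DKK1 in shScr day 7 (200.3 CPM) lies above its own other 3 (91.7 to 124 CPM).

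The first question was how APC knockdown and control compared for each member on either day. At day 7 WNT5A had the highest ratio of shAPC to shScr and was the one member past 2-fold, at day 3 FZD2 had the highest, and DKK1 was the member with the lowest ratio at both days. Past 2-fold means a difference of at least 1 in log2(CPM + 1) among genes with a mean of at least 5 CPM over the pair of libraries, which 9 members met; ROR2 did not. At day 3, 0 of the 9 were past 2-fold, against 3.85% of 9297 genes. At day 7, 1 of 9 was, against 1.98% of 8951 genes in either direction and 0.771% in the higher direction. At 1.5-fold the counts were 0 of 9 at day 3, where 20.2% of all genes passed, and 2 of 9 at day 7, WNT5A and DKK1, where 9.81% passed. The median log2 difference of the 9 was 0.18 at day 3 and 0.16 at day 7, beside 0.30 and -0.04 over all genes.

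The day 3 comparison carries an offset. When libraries were scaled by TMM, which centres most genes, instead of by total UMIs, every day 3 log2 ratio moved by -0.38, against -0.01 at day 7. By total UMIs, 7 members lay above 0 beyond counting error at day 3 and 2 below, where 69.2% and 11.3% of all genes did. Under TMM only WNT5A (0.01) and FZD2 (0.17) were above 0 at day 3 and the other 8 were below. At day 7 the 4 members above 0 beyond counting error, WNT5A, FZD2, DKK3 and SFRP1, compared with 24.7% of all genes, and the 2 below, WNT5B and DKK1, with 36.6%.

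**Figure D2:**
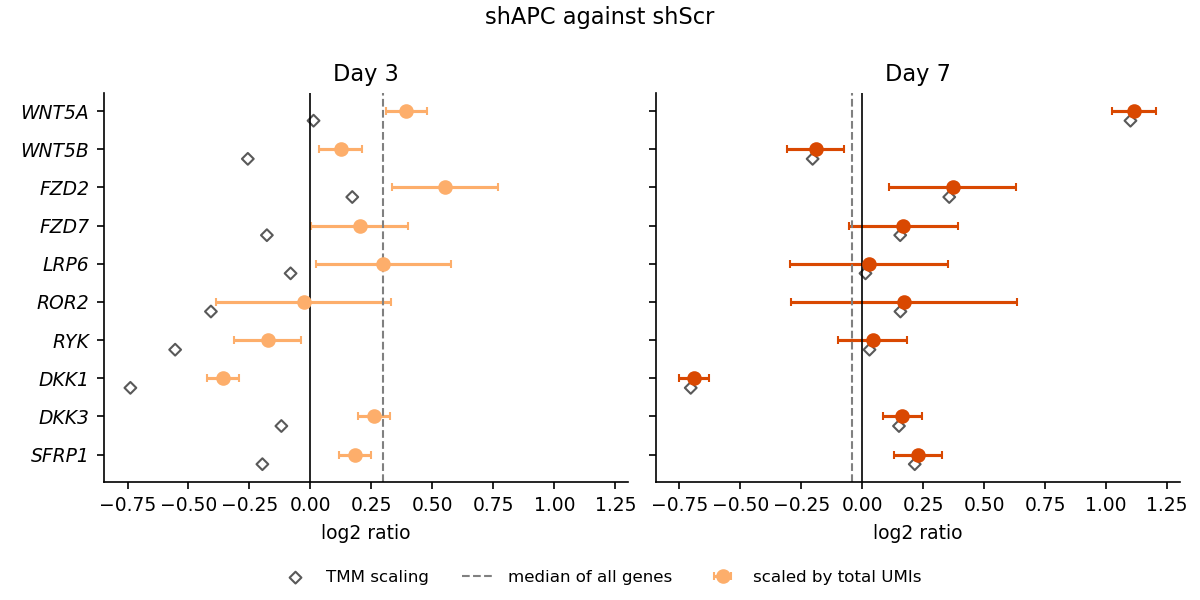
Log2 ratio of CPM, shAPC over shScr, at day 3 (left) and day 7 (right), with filled points and 95% counting intervals for scaling by total UMIs, open diamonds for TMM, and a dashed line at the median of all genes. WNT5A at day 7 (1.11) stands to the right of the other members, DKK1 stands at the left at both days (-0.36 and -0.69), and at day 3 the diamonds lie 0.38 to the left of the points.

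WNT5A (ENSG00000114251, chr3:55465715-55490539 on hg38, minus strand), the ligand best known for β-catenin-independent signalling, had 2116 UMIs in shScr day 3, 2439 in shAPC day 3, 1489 in shScr day 7 and 2934 in shAPC day 7. These were levels of 53.2 CPM (50.9 to 55.5), 69.8 CPM (67.1 to 72.6), 47.7 CPM (45.3 to 50.2) and 103 CPM (99.4 to 107). The shAPC library was the higher of the pair at both days, and shAPC day 7 was the highest of the 4. On the log2 scale shAPC exceeded shScr by 0.39 (0.31 to 0.48) on day 3 and, on day 7, by 1.11 (1.02 to 1.20), a 2.16-fold difference. The day 7 ratio exceeded the day 3 ratio by 0.72 (0.60 to 0.84), or by 1.09 (0.96 to 1.21) under TMM. Over 10 other choices of cells and scaling the day 7 difference in log2(CPM + 1) was 1.08 to 1.42, and the day 3 difference was 0.01 to 0.46.

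The day 7 difference in WNT5A was present in cells of every depth. The log2 ratio was 1.21 (0.66 to 1.76) in cells of 500 to 5000 UMIs, 1.61 (1.30 to 1.93) in those of 5000 to 20000 and 1.04 (0.95 to 1.14) in those of 20000 or more. At day 3 the deepest cells gave 0.40 (0.32 to 0.49), and the 62 shAPC cells of 5000 to 20000 UMIs, with 11 WNT5A UMIs, gave -1.13 (-2.21 to -0.19). The 9 mesenchymal markers differed in mixed directions in the same day 7 pair. On the log2 scale COL3A1 (1.33), COL1A2 (1.18), TWIST1 (0.92) and COL1A1 (0.68) were higher in shAPC, FN1 (-0.16), ZEB1 (-0.27), THY1 (-0.40) and CDH2 (-0.81) were lower, all beyond counting error, and VIM was at 0.00 (-0.01 to 0.01). The 9 mesenchymal markers summed to 11421 CPM in shScr day 3, 10911 in shAPC day 3, 8854 in shScr day 7 and 9732 in shAPC day 7, none was at 0, and their part in the WNT5A result was not tested. The file headers give Cell Ranger 3.0.2 where the shRNA was scrambled and 3.0.0 where it targeted APC, so software version and knockdown cannot be told apart in any ratio of the pair.

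WNT5B (ENSG00000111186, chr12:1529891-1647212, plus strand), the closest relative of WNT5A, had 2196 UMIs in the control and 2100 with shAPC at day 3, and 1341 and 1071 at day 7. Its levels, in this same order of control and shAPC at day 3 and then at day 7, were 55.2, 60.1, 42.9 and 37.6 CPM, so that both day 7 libraries lay below both day 3 libraries. The log2 ratio of shAPC to shScr was 0.12 (0.04 to 0.21) at day 3, or -0.26 under TMM, and -0.19 (-0.31 to -0.07) at day 7. The day 7 ratio minus the day 3 ratio was -0.31 (-0.46 to -0.17) by total UMIs and 0.05 (-0.09 to 0.20) under TMM, so its sign depended on the scaling. Within the UMIs of this ligand pair, WNT5A made up 49.1% in shScr day 3, 53.7% in shAPC day 3, 52.6% in shScr day 7 and 73.3% (71.9 to 74.6) in shAPC day 7. Such a share needs no scaling between libraries, and shAPC day 7 was the highest also over all barcodes (78.3%) and over cells of at least 2000 genes (73.1%).

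Both Frizzled receptors were low, and between their lowest and highest libraries FZD2 varied 1.56-fold and FZD7 1.16-fold. FZD2 (ENSG00000180340, chr17:44557484-44561262, plus strand), a receptor used by WNT5A among other ligands, had 314, 404, 231 and 272 UMIs in the same order of libraries. Its levels of 7.89, 11.6, 7.40 and 9.56 CPM were higher in shAPC at both days, with log2 ratios of 0.55 (0.33 to 0.77) and 0.37 (0.11 to 0.63). FZD2 kept this direction under all 10 other choices of cells and scaling. FZD7 (ENSG00000155760, chr2:202033855-202038441, plus strand), a receptor associated with intestinal stem cells, had 422, 426, 329 and 337 UMIs, or 10.6, 12.2, 10.5 and 11.8 CPM. The day 3 log2 ratio of FZD7 was 0.20 (0.00 to 0.40), or -0.18 under TMM, and the day 7 ratio 0.17 (-0.05 to 0.39).

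LRP6 (ENSG00000070018, chr12:12116025-12267044, minus strand), the co-receptor of the β-catenin route, had 213, 230, 167 and 155 UMIs. Its levels were 5.35, 6.58, 5.35 and 5.45 CPM, and shAPC day 3 was the highest. Its log2 ratio was 0.30 (0.02 to 0.57) at day 3, or -0.08 under TMM, and 0.03 (-0.30 to 0.35) at day 7. ROR2 (ENSG00000169071, chr9:91563091-91950228, minus strand), a receptor tyrosine kinase-like receptor of WNT5A, was the lowest member, with 144, 124, 80 and 82 UMIs, or 3.62, 3.55, 2.56 and 2.88 CPM. By total UMIs its intervals held 0 at both days, at -0.03 (-0.39 to 0.33) and 0.17 (-0.29 to 0.63). Under TMM the ROR2 ratio was -0.41 at day 3 and 0.16 at day 7. RYK (ENSG00000163785, chr3:134065303-134250859, minus strand), an atypical kinase-related Wnt receptor, had 995, 774, 849 and 797 UMIs. Its levels were 25.0, 22.1, 27.2 and 28.0 CPM, lowest in shAPC day 3. RYK compared between shAPC and shScr gave a log2 ratio of -0.17 (-0.31 to -0.04) for day 3, or -0.55 under TMM. For day 7 the RYK ratio was 0.04 (-0.10 to 0.18), or 0.03 under TMM. At day 7, then, of the 5 receptors FZD2 alone differed between shAPC and shScr beyond counting error.

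DKK1 (ENSG00000107984, chr10:52314281-52318042, plus strand), the LRP-binding antagonist whose promoter is printed above, had 4676 UMIs in shScr day 3, 3203 in shAPC day 3, 6256 in shScr day 7 and 3534 in shAPC day 7. These were levels of 117 CPM (114 to 121), 91.7 CPM (88.5 to 94.9), 200.3 CPM (195 to 205) and 124 CPM (120.2 to 128). The shAPC library was the lower of the pair at both days, and shScr day 7 was the highest of the 4. The day 3 log2 ratio of -0.36 (-0.42 to -0.29) and the day 7 ratio of -0.69 (-0.75 to -0.63) correspond to 0.78-fold and 0.62-fold, and both ratios were below 0 under all 10 other choices of cells and scaling. The day 7 ratio minus the day 3 ratio was -0.33 (-0.42 to -0.24) by total UMIs but 0.04 (-0.05 to 0.12) under TMM. Size depended on how cells were weighted: the mean over cells of each cell's CPM, in which shallow cells weigh as much as deep ones, gave -1.11 at day 7. By depth, the DKK1 log2 ratio at day 7 was -0.92 (-1.19 to -0.66), -0.86 (-1.05 to -0.66) and -0.60 (-0.66 to -0.53) from the shallowest to the deepest cells.

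The other antagonists did not share the DKK1 pattern. DKK3 (ENSG00000050165, chr11:11956207-12009769, minus strand), a divergent Dickkopf, had 3563, 3748, 2504 and 2556 UMIs, or 89.5, 107, 80.2 and 89.8 CPM. Its log2 ratio was 0.26 (0.19 to 0.33) at day 3, or -0.12 under TMM, and 0.16 (0.08 to 0.24) at day 7. SFRP1 (ENSG00000104332, on chromosome 8), which binds Wnt ligands outside the cell, had 3647, 3635, 1688 and 1802 UMIs, or 91.6, 104, 54.0 and 63.3 CPM. Its log2 ratio was 0.18 (0.12 to 0.25) at day 3, or -0.20 under TMM, and 0.23 (0.13 to 0.33) at day 7. DKK1 made up 39.3% of the UMIs of the 3 antagonists in shScr day 3, 30.3% in shAPC day 3, 59.9% in shScr day 7 and 44.8% in shAPC day 7. The share was lower in shAPC than in shScr at both days and higher at day 7 than at day 3 with either shRNA.

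**Figure D3:**
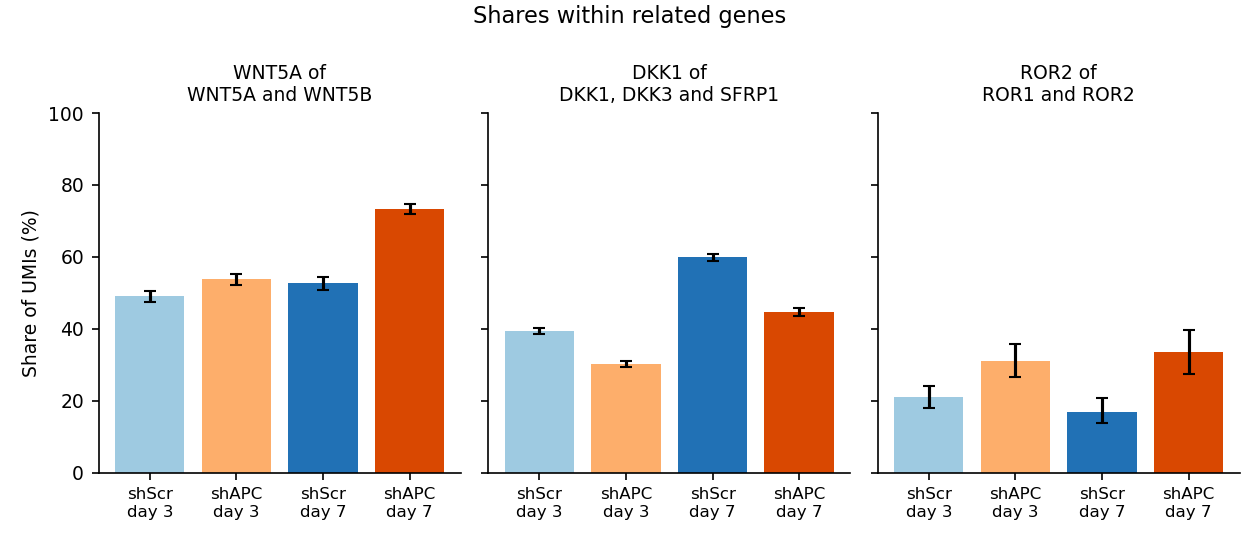
Share of UMIs, in percent, of WNT5A in the WNT5A and WNT5B pair, of DKK1 among DKK1, DKK3 and SFRP1, and of ROR2 among ROR1 and ROR2, in the 4 libraries, with exact binomial 95% intervals. WNT5A in shAPC day 7 (73.3%) stands above its other bars (49.1% to 53.7%), the DKK1 share is lower in shAPC at both days, and the ROR2 share is higher in shAPC at both days.

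The second question was how each member differed between day 3 and day 7 within shScr and within shAPC. None of the 9 members was past 2-fold in shScr or in shAPC, where 0.856% of 8875 genes and 4.81% of 9363 genes were. At 1.5-fold there were 2 members in shScr, DKK1 and SFRP1, against 5.77% of all genes, and 2 in shAPC, WNT5B and SFRP1, against 22.4%. Which members passed 1.5-fold in shAPC depended on the scaling: under TMM WNT5B (-0.37) and SFRP1 (-0.41) did not, and WNT5A (0.87), RYK (0.64) and DKK1 (0.74) did, against 11.9% of all genes. In shAPC, TMM moved every log2 ratio by 0.30, and the median of all genes was -0.31 by total UMIs; in shScr the same values were -0.06 and 0.04. In shScr, of all 10 members, DKK1 was above 0 beyond counting error, 5 members were below and 4 intervals held 0. The 5 below include ROR2, which did not meet the 5 CPM minimum. Of all genes that met it, 34.5% were above and 25.0% below. In shAPC, WNT5A, RYK and DKK1 were above 0 and WNT5B, FZD2, DKK3 and SFRP1 below, where 9.94% of all genes were above and 66.9% below. The 2 comparisons share no library with each other, but each shares its libraries with the comparisons of shAPC with shScr above.

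DKK1 was higher and SFRP1 and WNT5B were lower at day 7 with either shRNA under each of the 3 scalings by total UMIs, TMM and DESeq2, though WNT5B and SFRP1 were not below 0 in shAPC cells of every depth. For DKK1 the log2 ratio of day 7 to day 3 was 0.77 (0.71 to 0.82) in shScr and 0.44 (0.37 to 0.51) in shAPC. For SFRP1 it was -0.76 (-0.85 to -0.68) and -0.72 (-0.80 to -0.63), and for WNT5B -0.36 (-0.46 to -0.26) and -0.67 (-0.78 to -0.57). WNT5A differed in opposite directions, at -0.16 (-0.25 to -0.06) in shScr and 0.56 (0.49 to 0.64) in shAPC. RYK was at 0.12 (-0.01 to 0.25) in shScr and 0.34 (0.19 to 0.48) in shAPC. ROR2 was at -0.50 (-0.91 to -0.09) in shScr and -0.30 (-0.72 to 0.11) in shAPC.

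The day 7 control library held many shallow cells, and the weighting of cells by depth changed several of these values by more than 1.5-fold. With the mean over cells of CPM, DKK1 in shScr was 1.69 and SFRP1 was -1.01, both past 2-fold, and DKK1 in shAPC was 1.03. Among cells of 500 to 5000 UMIs the DKK1 log2 ratio over time was 2.13 (1.72 to 2.57) in shScr and 2.33 (1.54 to 3.24) in shAPC, where day 3 held 14 DKK1 UMIs. It was lower with depth, at 1.16 (0.89 to 1.43) and 1.17 (0.65 to 1.73) in cells of 5000 to 20000 UMIs and at 0.64 (0.58 to 0.69) and 0.39 (0.32 to 0.46) in deeper cells. In shAPC cells of 5000 to 20000 UMIs, WNT5B was at 0.64 (-0.23 to 1.65) from 12 UMIs at day 3 and SFRP1 at 0.57 (-0.01 to 1.21) from 27. In the deepest cells WNT5B was at -0.34 and -0.65 and SFRP1 at -0.76 and -0.74, for shScr and then shAPC.

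FZD2, LRP6 and DKK3 lay below 0 in shAPC by total UMIs, at -0.27 (-0.50 to -0.05), -0.27 (-0.58 to 0.03) and -0.26 (-0.33 to -0.18), and at 0.03, 0.03 and 0.05 under TMM. By total UMIs FZD7 was within counting error of 0 with either shRNA, at -0.01 (-0.22 to 0.20) in shScr and -0.04 (-0.25 to 0.17) in shAPC. Under TMM it was at -0.07 in shScr and 0.26 in shAPC, so the value in shAPC depended on the scaling.

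**Figure D4:**
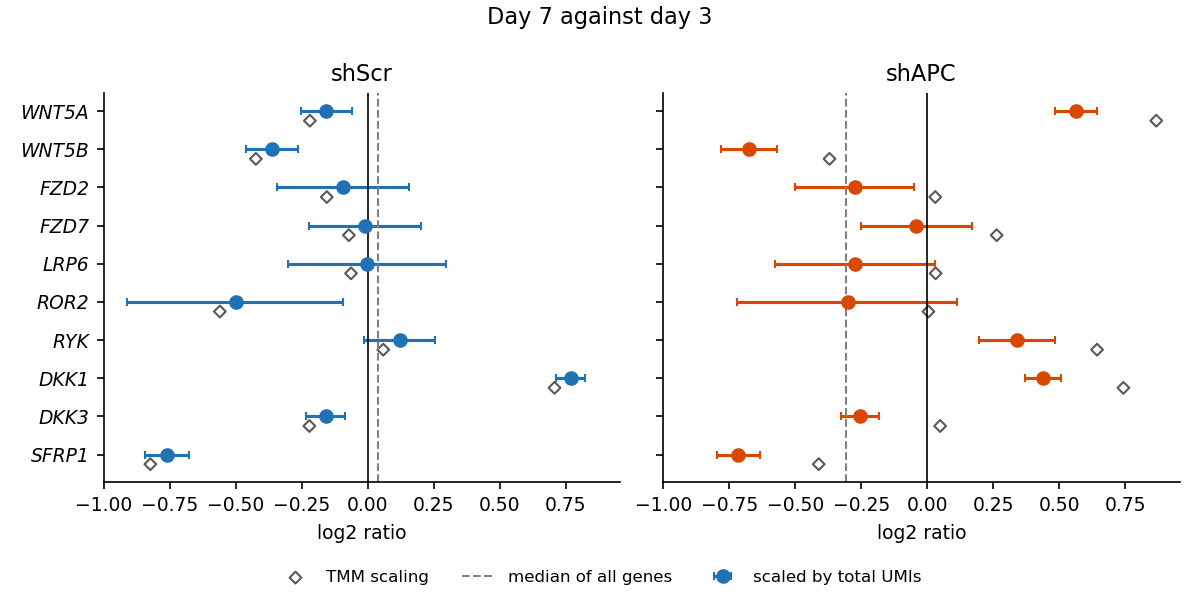
Log2 ratio of CPM, day 7 over day 3, in shScr (left) and shAPC (right), with filled points and 95% counting intervals for scaling by total UMIs, open diamonds for TMM, and a dashed line at the median of all genes. DKK1 lies right of 0 and SFRP1 and WNT5B left of 0 in both panels, and WNT5A lies at -0.16 in shScr and at 0.56 in shAPC.

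The third question was how widely the members were detected among cells. Every cell was thinned to 2000 UMIs, which left out 217 and 115 shallower cells of shScr and shAPC at day 3, and 1402 and 391 at day 7. A WNT5A UMI was then found in 9.23%, 12.0%, 7.93% and 16.3% of cells in that order, and without thinning in 56.5%, 65.9%, 25.8% and 54.7%. A DKK1 UMI was found in 17.7%, 13.8%, 28.8% and 20.0% of thinned cells, and without thinning in 60.1%, 62.8%, 50.8% and 52.4%. The order of the libraries in thinned cells was that of the CPM for both genes, while the unthinned shares also followed depth. DKK3 and SFRP1 were found in 10.3% to 19.2% of thinned cells, WNT5B in 6.72% to 11.3%, RYK in 3.86% to 5.34% and the other 4 members in 0.334% to 2.38%.

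A line culture holds no cell type that should lack these genes, so genes of other lineages served as the reference. PTPRC, CD3E, HBB, ALB, PECAM1, VWF and INS were each found in at most 0.149% of thinned cells, at the same median depths of 25922 to 53916 UMIs before thinning. The share of ROR2 in each library, and that of LRP6 in both day 3 libraries, was not separated from this reference beyond counting error at this depth. Without thinning, ROR2 was found in 10.9%, 11.8%, 2.88% and 5.21% of cells, and LRP6 in 16.1% and 23.1% at day 3. The highest unthinned share of a reference gene was 2.16%, for HBB in shAPC day 3. CD68 is left out of the reference because the line expressed it, at 17.4 to 29.6 CPM.

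Of the 10 members DKK1 had the highest ratio of variance to mean among cells thinned to 5000 UMIs in every library, at 1.89, 1.99, 2.03 and 1.89 in the same order, beside at most 1.58 for any other member. At this depth at least 2 DKK1 UMIs were found in 13.0%, 8.12%, 23.4% and 14.9% of cells, with up to 11 in 1 cell. For WNT5A these shares were 4.33%, 4.55%, 3.47% and 12.5%, so the excess in shAPC day 7 was also present among cells with several WNT5A transcripts. Rank correlations between members across cells were weak, with medians of 0.01 to 0.02 over 45 pairs per library and none above 0.14. Cells of 1 library share its depth and free RNA, and at these counts such values carry no finding.

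**Figure D5:**
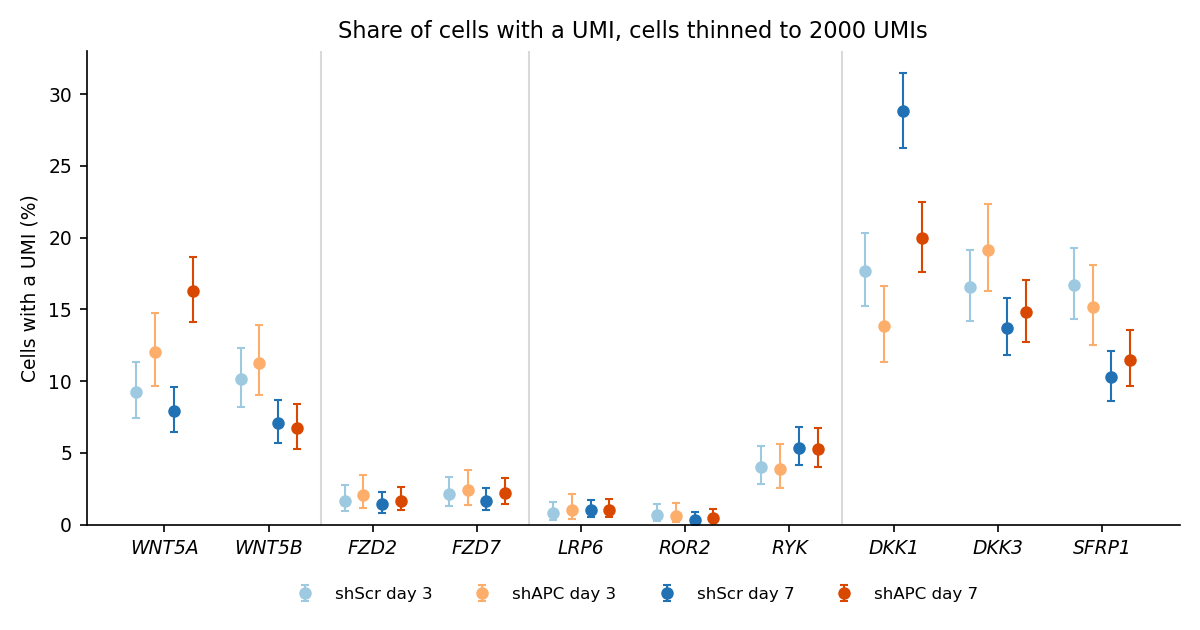
Share of cells with at least 1 UMI of each member, in percent, after each cell was thinned to 2000 UMIs, with exact binomial 95% intervals for the 4 libraries. DKK1 was found in 28.8% of shScr day 7 cells and 13.8% to 20.0% of the others, WNT5A in 16.3% of shAPC day 7 cells and 7.93% to 12.0% of the others, and FZD2, FZD7, LRP6 and ROR2 in at most 2.38% of cells in any library.

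Other genes of the pathway were read from a list of 59. Of these, 20 had at least 100 UMIs over the 4 libraries and 14 had none. Among 17 further Wnt ligands only WNT2B reached 100 UMIs, at 1.99 to 2.95 CPM, and 6 were at 0 UMIs, which allows at most 0.0754 to 0.105 CPM in a library. WNT5A and WNT5B were thus the ligands with the most UMIs by a wide margin. Of the 4 R-spondins, secreted agonists of the pathway, none exceeded 27 UMIs in a library. PORCN, which adds the lipid to Wnt ligands, was at 29.2, 35.9, 29.0 and 23.6 CPM, and WLS, which carries them to the surface, at 52.9, 47.0, 43.99 and 38.9 CPM, in the same order of libraries.

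In the comparisons of shAPC with shScr 10 of the 59 met the 5 CPM minimum. None was past 2-fold at day 3, and ROR1 alone was at day 7, in the lower direction. In each comparison of days 10 or 11 met the minimum and none was past 2-fold. ROR1, the relative of ROR2, was at 13.6, 7.87, 12.5 and 5.73 CPM, lower in shAPC at both days, with log2 ratios of -0.79 (-1.01 to -0.58) and -1.13 (-1.40 to -0.86). ROR2 accordingly made up 21.0%, 31.1%, 16.99% and 33.5% of the ROR1 and ROR2 UMIs. PTK7, another kinase-like Wnt receptor, was at 9.25, 11.6, 6.63 and 13.4 CPM, with a day 7 log2 ratio of 1.01 (0.76 to 1.26) that did not pass on the log2(CPM + 1) scale. FZD6 was the most abundant Frizzled, at 19.4 to 27.2 CPM.

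DKK2, a Dickkopf like DKK1, went the other way. It had 24, 56, 26 and 158 UMIs, or 0.603, 1.60, 0.833 and 5.55 CPM, higher in shAPC at both days and highest in shAPC day 7. The log2 ratios were 1.41 (0.70 to 2.16) and 2.74 (2.13 to 3.40), but its mean over the day 7 pair lay under the 5 CPM minimum. DKK2 is therefore in no count above of genes past that minimum or past 2-fold. The remaining genes with at least 100 UMIs were FZD1, FZD4, FZD8, LRP5, LGR4, KREMEN1, DVL1, DVL2, DVL3, VANGL1, PRICKLE1, PRICKLE2 and CELSR3. Among them DVL2, a Dishevelled scaffold, had a day 3 log2 ratio of 0.77 (0.54 to 1.01) and a day 7 ratio of 0.18 (-0.11 to 0.46). PRICKLE1 had a higher day 3 ratio, at 1.70, and a day 7 ratio of 0.40. It was low, with 20, 57, 34 and 41 UMIs in the same order of libraries, and under the 5 CPM minimum.

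For the 3 members with the most UMIs, the genes with the most similar profile over the 4 libraries were named from 4507 genes with a mean of at least 20 CPM, by Euclidean distance between centred log2(CPM + 1) profiles. For DKK1 these were AC092807.3, ID3 and CHPT1, at distances of 0.08, 0.13 and 0.15. ID3, an inhibitor of basic helix-loop-helix factors, was at 277 CPM in shScr day 3, 199 in shAPC day 3, 438 in shScr day 7 and 259 in shAPC day 7. For DKK3 they were DAZAP2, TMEM259 and MIGA1, at 0.02 to 0.03, and for SFRP1 they were ST6GALNAC4, UNC45A and DCTN1, at 0.02 to 0.04. Each likeness rests on 4 points, 1 per library.

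Some members overlap a gene on the opposite strand. Whether the counting used strand is not given in the sources used here, so reads of such pairs may not be separable. Over the 4 libraries WNT5A-AS1 had 182 UMIs beside 8978 for WNT5A, PRKG1-AS1 had 54 beside 17669 for DKK1, and USP47 had 2780 beside 12371 for DKK3.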

How the data were processed

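The deposited files held, for each library, raw UMI counts per gene and cell barcode, which the authors made by aligning 10x Chromium 3′ reads to GRCh38 with Cell Ranger and STAR. The file headers name Cell Ranger 3.0.2 for the shScr libraries and 3.0.0 for the shAPC libraries. The labels name a version of the kit and the type of virus other than those in the study's methods. The study's supplementary sequencing statistics give the same kit version as the labels. A barcode was kept if it had 200 genes or more, 500 UMIs or more, and a share of UMIs from the 13 mitochondrial genes below 5%. Doublets were not called, and leaving out the top 5% of cells by UMIs was an alternative. For each library the kept cells' counts were added up and scaled to a total of 1000000 (CPM). Ratios carry exact conditional binomial (Clopper-Pearson) intervals, levels exact Poisson intervals and shares exact binomial intervals, all at 95%. Genes with a mean of at least 5 CPM over a pair were compared on log2(CPM + 1). A UMI is 1 molecule, but intervals cover counting error only. A zero was read as at most 3 counts.

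The members and lists were chosen with earlier results of these data known. The genes named were the 10 members, APC, other Wnt genes with at least 100 UMIs over the 4 libraries or past 2-fold, and the 3 nearest profiles of the 3 members with the most UMIs. Marker lists were fixed for epithelial, mesenchymal and other lineages. The alternatives were TMM (edgeR 4.0.16) and DESeq2 1.42.0 size factors, used for scaling only, other cell filters, minimums, pseudocounts and folds. The intervals were tested on simulated Poisson counts. These hold counting error only, with no spread between cells or cultures, so that test cannot show how well the intervals fit these libraries. Gene positions are from GENCODE 44 and promoters from RefSeq. Python 3.11.15, numpy 2.4.6, scipy 1.17.1 and pandas 2.3.3 were used.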

Additional observations from a re-analysis of the deposited data

Results flagged for a closer look

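In 3 genes the shAPC to shScr ratio lay above 0 at day 3 and below 0 at day 7, each beyond counting error. The day 7 log2 ratio minus the day 3 log2 ratio was -0.313 for WNT5B, -0.591 for PORCN and -0.507 for DVL1. With 1 library per group the difference was not tested beyond its counting interval, and under TMM all 3 day 3 ratios were below 0 (-0.26, -0.08 and -0.18). Under TMM the differences between the days were 0.05 (-0.09 to 0.20), -0.22 (-0.41 to -0.04) and -0.14 (-0.34 to 0.06).

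Barcodes over the mitochondrial limit, which were left out of the main comparisons and entered only those with all barcodes or a limit of 10%, also held member UMIs. The values listed first are those where the Poisson intervals of the levels in shAPC and shScr did not overlap, with shAPC higher. In these barcodes the day 3 log2 ratio was 0.702 for WNT5A and 0.483 for SFRP1. The day 7 log2 ratio was 1.490 for WNT5A, 0.683 for FZD2, 0.296 for DKK3 and 0.604 for SFRP1. LRP6, at 0.72 (0.05 to 1.42), and FZD2, at 0.51 (0.00 to 1.04), also lay above 0 at day 3 by the interval of the ratio, though their level intervals overlapped. DKK1 was lower in shAPC in the same barcodes, at -0.25 (-0.42 to -0.07) at day 3 and -1.33 (-1.41 to -1.25) at day 7. These differences were not tested.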

How the results depend on the processing

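Each group was 1 library, so no value has a replicate error. No paired analysis was possible because the labels give no replicate numbers and each group holds 1 library. The log2 ratios of DKK1 and WNT5A kept their sign in all 4 comparisons under 10 alternatives of cells and scaling, and no member past 2-fold turned. The count of members past 2-fold moved from 1 to 2 at day 7, from 0 to 2 in shScr over time and from 0 to 1 in shAPC over time with the mean over cells of CPM. At 1.5-fold it was 2 at day 7, 2 in shScr and 2 in shAPC, and at 1.5-fold with TMM, a combination added after seeing the data, 1 at day 3, 2 at day 7, 2 in shScr and 3 in shAPC. The difference between the days in the shAPC to shScr log2 ratio lay beyond counting error by total UMIs for WNT5A, RYK, WNT5B and DKK1. Of these it turned for WNT5B, from -0.31 to 0.054 with TMM, 0.028 with DESeq2 and 0.079 with the mean over cells. For DKK1 it turned from -0.33 to 0.035 with TMM and 0.0099 with DESeq2. For RYK it was 0.22 (0.02 to 0.41), or 0.58 (0.39 to 0.78) with TMM. With TMM it was also above 0 beyond counting error for SFRP1 (0.41), DKK3 (0.27), FZD7 (0.33) and ROR2 (0.56), whose intervals held 0 by total UMIs. The day 3 median of the members was -0.16 with TMM, -0.15 with DESeq2 size factors and 0.076 without mitochondrial and ribosomal protein genes in the totals, against 0.18. Their median over time in shAPC, -0.23, was 0.048 with TMM, 0.050 with DESeq2, -0.081 without those genes, -0.0066 with all barcodes, -0.016 with a mitochondrial limit of 10%, -0.12 without the top 5% of cells and 0.10 with the mean over cells. The count of all genes past 2-fold at day 3, 358, was 225 with TMM, 221 with DESeq2, 195 without the top 5% of cells, 168 at a minimum of 20 CPM, 189 at a pseudocount of 5 CPM and 1880 at 1.5-fold. At day 7, 177 became 268 with all barcodes, 266 at a limit of 10%, 484 with the mean over cells, 93 at 20 CPM, 299 with no minimum, 87 at a pseudocount of 5 and 878 at 1.5-fold. In shScr over time, 76 became 336 with the mean over cells, 42 at 20 CPM, 115 with no minimum, 41 at a pseudocount of 5 and 512 at 1.5-fold. In shAPC over time, 450 became 233 with TMM, 232 with DESeq2, 284 without the top 5% of cells, 228 at 20 CPM, 250 at a pseudocount of 5 and 2100 at 1.5-fold. Counts with other minimums, pseudocounts and folds follow from those settings, and for the rest the cause was not tested. The bins of cell depth were chosen after seeing the data.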
